A study of Mus musculus with 2 samples.

Results

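Matrix metalloproteinases are zinc-dependent enzymes that cut collagens, elastin and other proteins outside the cell, and the tissue inhibitors of metalloproteinases (TIMPs) block them. The messenger RNA of 9 such genes was followed across the cell classes of 2 mouse lungs: the metalloproteinases Mmp2, Mmp8, Mmp9, Mmp12, Mmp14 and Mmp19, and the inhibitors Timp1, Timp2 and Timp3. The genes were taken by symbol, and each of the 9 matched 1 of the 27998 rows of the deposited tables.

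The data were 2 single-cell RNA libraries from whole lung of male C57Bl/6j mice aged 3 months, made with the 3′ V2 droplet chemistry of 10x Genomics. All mice had received 100 µg of TiO2 or of crocidolite asbestos through the trachea and were killed at day 14. Inhaled crocidolite fibres cause lung scarring, and TiO2 is a particle of low toxicity often used for comparison. The library of 1 mouse was labelled control and that of another fibrosis. Both particles stand in the labels of each mouse without the one it was given, and the libraries keep their labelled names here. With 1 mouse per group there is no replicate, so no test was made between the groups, and every interval below covers counting error only.

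Mmp12 is macrophage elastase and is best known from macrophages. Mmp8 and Mmp9 are stored in the granules of neutrophils, the first a collagenase and the second a gelatinase. Mmp2 is the gelatinase of mesenchymal cells. Mmp14 is anchored in the cell membrane and, together with a molecule of Timp2, switches on the proenzyme of Mmp2, so that Timp2 both inhibits and helps. Timp3 differs from the other inhibitors in that it binds to the matrix itself.

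The filters left 7510 cells in the control lung and 6777 in the fibrosis lung, whose median depth was 3691 and 4287 unique molecular identifiers (UMIs, 1 per captured transcript) per cell. They formed 34 clusters, of which 27 received a class from marker genes and 7 were mixed. In total 20 classes held at least 20 cells in each library and were compared. Names are rebuilt from transcripts, so each class is called "-like". In both libraries 10 of 10 alveolar macrophage, 8 of 8 interstitial macrophage and 8 of 8 fibroblast markers had UMIs in their own class. The clusters were named from these markers, so this is no separate check of the names. All 7 AT2 markers also had UMIs in alveolar macrophage-like and fibroblast-like cells of both libraries. Levels are given as UMIs per 1000000 UMIs of the class (CPM). The libraries differed in makeup: 649 control cells but 61 fibrosis cells were neutrophil-like, and 628 control but 989 fibrosis cells were alveolar macrophage-like. They shared 89 cell barcodes.

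Positions are on GRCm38 (GENCODE M21). Mmp12 (chr9:7344381-7369499) and Mmp8 (chr9:7558456-7568485) are near each other on chromosome 9, both on the plus strand. Mmp19 (chr10:128790910-128800824) and Timp3 (chr10:86300372-86349506) are on chromosome 10. The others are Mmp2 (chr8:92827291-92853420), Mmp9 (chr2:164940780-164955850), Mmp14 (chr14:54431612-54445364), Timp1 (chrX:20870166-20874735) and Timp2 (chr11:118301069-118355740). Timp2 alone is on the minus strand. Timp3 and Timp1 lie within the spans of the synapsin genes Syn3 and Syn1 on the opposite strand, which held 86 and 229 UMIs in all, and BC100451 (12 UMIs) overlaps Timp2 on its own strand. Whether the counting used strand is not given in the sources used here.

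Promoter windows were found in RefSeq (GRCm38.p6) for 6 of the 9 genes, and not for Mmp2, Mmp9 and Mmp19. The 3 windows shown belong to the genes with the largest ratio between the libraries in alveolar macrophage-like cells. Each holds the 150 bases before the RefSeq start, 5′ to 3′ on the gene's strand, at chr9:7347224-7347373, chr14:54431448-54431597 and chrX:20870016-20870165. Capitals mark a match to TGANTCA, the letters bound by AP-1 factors.
Mmp12: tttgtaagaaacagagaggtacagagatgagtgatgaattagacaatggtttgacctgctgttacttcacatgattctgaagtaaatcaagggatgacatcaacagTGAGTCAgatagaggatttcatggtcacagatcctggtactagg
Mmp14: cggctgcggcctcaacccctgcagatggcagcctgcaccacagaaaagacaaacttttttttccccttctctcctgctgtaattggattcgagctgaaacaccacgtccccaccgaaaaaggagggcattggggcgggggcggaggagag
Timp1: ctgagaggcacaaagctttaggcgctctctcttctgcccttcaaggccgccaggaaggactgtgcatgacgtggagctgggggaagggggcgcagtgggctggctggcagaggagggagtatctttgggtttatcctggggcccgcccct
The Mmp12 window held TGAGTCA beginning 44 bases before the start. On either strand, TGANTCA was found in the 250 bases before the start in 2217 of 32851 RefSeq promoter entries (6.75%). Of the 7 entries of the members, this Mmp12 window was the one that held it: the Mmp14, Timp1, Timp2, Timp3 and Mmp8 windows and that of the Mmp12 start further upstream at 7344397 had no match. TATAAA, found in 12.4% of all entries, was in none of the 7. Such a match describes letters and shows no binding.

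For 8 of the 9 genes the leading cell class among those compared was the same in both lungs or overlapped with the next within counting error. Mmp8 and Mmp9 were highest in neutrophil-like cells, Mmp2, Mmp14 and Timp1 in fibroblast-like cells, Timp2 in mesothelial-like cells, Timp3 in fibroblast- and AT1-like cells, and Mmp19 in alveolar macrophage-like cells. Mmp12 was the exception, with type 2 dendritic cell- and interstitial macrophage-like cells first in the control library and alveolar macrophage-like cells first in the fibrosis library.

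**Figure D1:**
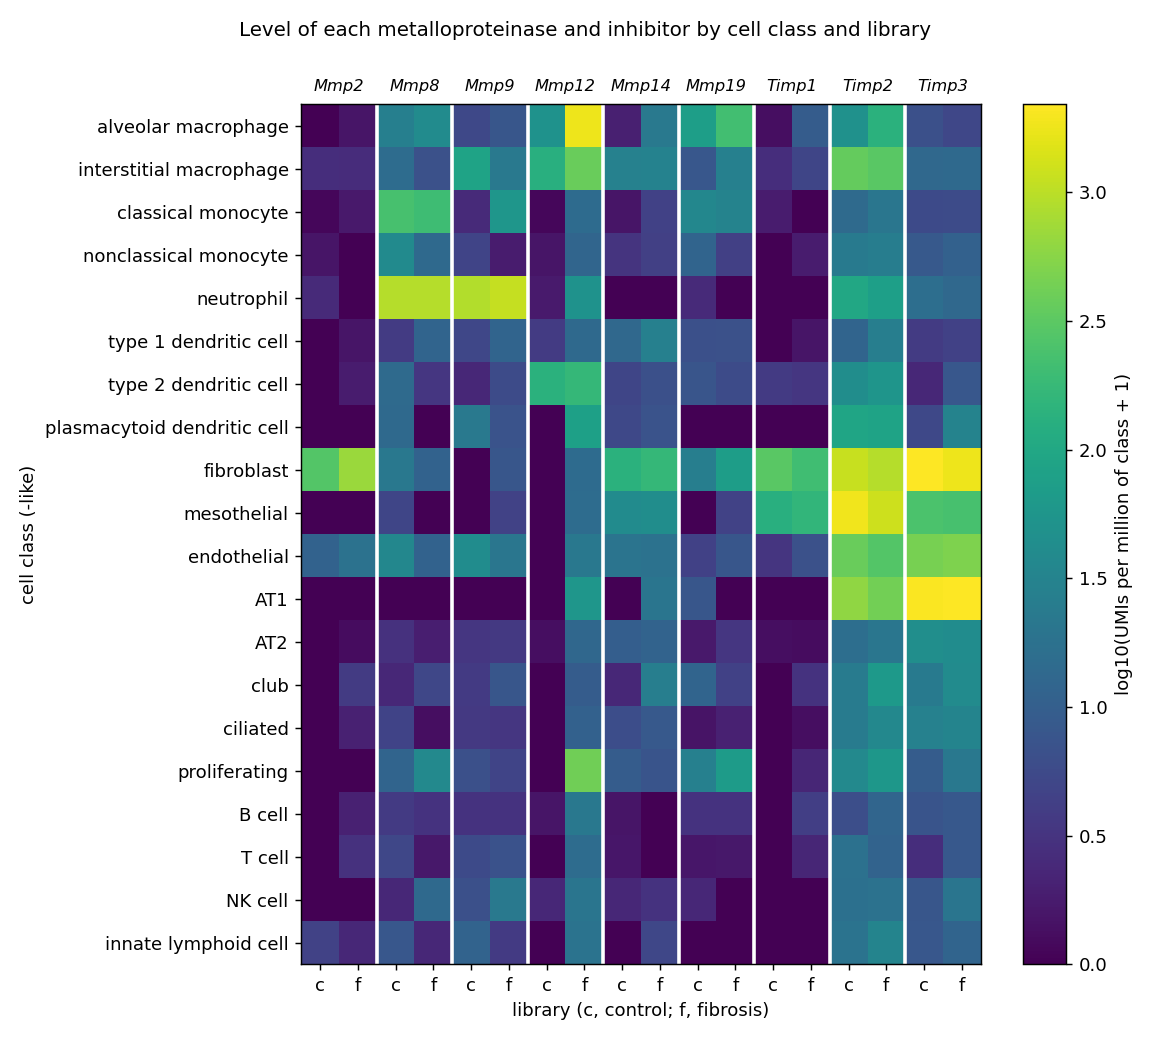
Level of the 9 genes (columns, control and fibrosis library side by side) in the 20 compared cell classes (rows), as log10 of UMIs per 1000000 of the class plus 1. Timp3 is bright in fibroblast- and AT1-like cells of both libraries, and Mmp12 in fibrosis alveolar macrophage-like cells.

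Of the 180 pairs of gene and class, 78 held at least 20 UMIs over both libraries and were counted. In 27 of them (34.6%) the level was at least 2-fold higher in the fibrosis library, against 5.46% of 133561 pairs over all genes. In 6 (7.69%) it was at least 2-fold lower, against 3.57% of all pairs. Mmp12 gave 9 of its 10 counted pairs to the higher group. Without Mmp12, 18 of 68 pairs (26.5%) were higher. The median log2 ratio was 0.33 over the 78 pairs and 0.0036 over all pairs. In alveolar macrophage-like cells 5 of 8 counted members were at least 2-fold higher, against 5.38% of genes there, and in interstitial macrophage-like cells 2 of 6, against 5.09%. Most of the higher pairs, such as Timp1 in alveolar macrophage-like cells (1 and 48 UMIs), passed the minimum through the fibrosis library alone. The minimum favours a higher ratio in such pairs, so the share of 34.6% rests largely on them. Some pairs that passed in this way stayed within 2-fold, such as Timp3 in alveolar macrophage-like cells (17 and 24 UMIs).

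Mmp12 in alveolar macrophage-like cells was 49.3 CPM in the control library (151 UMIs) and 1783 CPM in the fibrosis library (10137 UMIs). The log2 ratio was 5.18, with an interval from 4.94 to 5.42. The transcript was found in 12 of 628 control cells (1.91%) and in 422 of 989 fibrosis cells (42.7%), while B cell-like cells, which should lack the gene, showed it in 0.113% and 5.10%. Median depth was 4664.5 and 5182 UMIs in the macrophage-like cells, and 1828 and 2506 in the B cell-like cells. Thinned to 1000 UMIs per cell, the shares of alveolar macrophage-like cells were 0.478% and 27.4%.

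The control value rested on few cells. A single control cell held 92 of the 151 UMIs, and without the richest cell of each library the levels were 19.3 and 1699 CPM, a log2 ratio of 6.46. With a mitochondrial limit of 5% it was 6.84. In the fibrosis library the richest cell held 524 UMIs, 56 cells held 50 or more, 129 held 10 to 49, and 567 held none. The richest 10% of cells carried 79.0% of the UMIs.

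**Figure D2:**
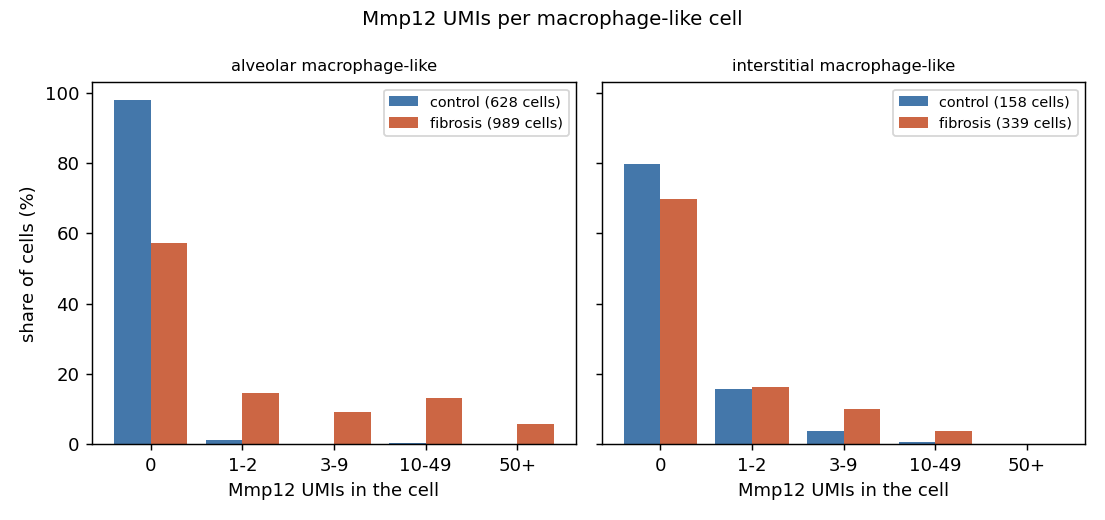
Share of cells (%) by the number of Mmp12 UMIs in the cell, for alveolar macrophage-like (left) and interstitial macrophage-like cells (right) of each library. In the fibrosis library 18.7% of alveolar macrophage-like cells held 10 or more UMIs, against 0.478% in the control library.

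Interstitial macrophage-like cells had Mmp12 at 127 CPM in the control library (72 UMIs) and 375 CPM in the fibrosis library (461 UMIs), a log2 ratio of 1.57 (1.20 to 1.94). The share of cells with the transcript was 20.3% and 30.1%. In type 2 dendritic cell-like cells the level was 136 and 170 CPM, and the interval of the log2 ratio, from -0.03 to 0.67, spanned 0. A single control cell held 27 of the control UMIs there (26.5%), and without the richest cell of each library the levels were 100.5 and 155 CPM, with a log2 ratio of 0.63 (0.24 to 1.03). Both classes thus carried Mmp12 in both lungs. In proliferating-like cells the 10 alveolar macrophage markers summed to 17976 CPM in the control and 39354 CPM in the fibrosis library. The marker Chil3 alone gave 13205 and 34770 CPM of these sums. Mmp12 held 0 of the 360696 UMIs of this class in the control library and 315 UMIs (407 CPM) in the fibrosis library. That level was 48.96-fold the limit of 3 UMIs that the control count of 0 allows, and the exact interval of the log2 ratio began at 5.31.

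The remaining classes of the fibrosis library all carried some Mmp12, from 8.33 CPM in club-like to 79.0 CPM in plasmacytoid dendritic cell-like cells, where 1 cell held 11 of the 13 UMIs. It was 11.9 CPM in AT2-like, 14.4 in T cell-like, 13.5 in classical monocyte-like and 20.9 in B cell-like cells. Of the 18 B cell-like cells with Mmp12, 17 held 1 or 2 UMIs. Spp1 (osteopontin), another transcript abundant in the fibrosis alveolar macrophage-like cells, accompanied it. The ratio of Mmp12 to Spp1 UMIs was 0.668 in the alveolar macrophage-like cells and 0.789, 0.880, 0.571 and 0.833 in the same 4 classes. Over the other classes of low level it ranged more widely, among them 0.299 in type 1 dendritic cell-, 0.518 in ciliated-, 1.29 in endothelial-, 1.80 in AT1-, 3.25 in plasmacytoid dendritic cell- and 4 in neutrophil-like cells, the last 3 on 13 UMIs of Mmp12 or fewer. In interstitial macrophage- and type 2 dendritic cell-like cells it was 4.43 and 8.23. Of the 9 Mmp12 pairs counted as higher, 6 came from classes at a low level (AT2-, B cell-, T cell-, ciliated-, classical monocyte- and type 1 dendritic cell-like). Their levels lay between 9.87 and 20.9 CPM, at or below that of B cell-like cells, and whether they are free RNA was not tested.

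When macrophage- and monocyte-like cells were clustered again without the members, the other listed protease and matrix genes or the class markers, alveolar macrophage-like cells fell mainly into 2 subclusters. The first held 610 of 628 control cells (97.1%) and 658 of 989 fibrosis cells (66.5%). The second held 18 control (2.87%) and 328 fibrosis cells (33.2%). The clustering of all cells, also made without the listed genes, had divided the class in a similar way. There 1 cluster held 606 control and 621 fibrosis cells, and 1 held 22 control and 368 fibrosis cells.

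Mmp12 was concentrated in the second subcluster. In the fibrosis library it was 161 CPM in the first and 4120 CPM in the second subcluster. There it was found in 154 of 658 cells (23.4%) of the first and 265 of 328 cells (80.8%) of the second. In the control library the levels were 4.72 and 1419 CPM, but 3 of the 18 cells of the second subcluster held all its 137 UMIs. Within the first subcluster alone, Mmp12 was still higher in the fibrosis library, with a log2 ratio of 5.09 (4.33 to 5.97).

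The same division was seen for 4 other members in the fibrosis library. Mmp14 was 1.19 CPM in the first and 50.9 CPM in the second subcluster. Mmp19 was 102.3 and 371 CPM, Timp2 was 74.3 and 221 CPM, and Timp1 was 2.98 and 16.4 CPM. None of the 4 count intervals overlapped between the subclusters. Mmp8 went the other way, with 56.7 CPM in the first and 15.95 CPM in the second, a log2 ratio of -1.83 (-2.38 to -1.32). Mmp9 (5.17 CPM) and Timp3 (3.02 CPM) in the second subcluster had intervals that overlapped those of the first. Within the first subcluster the log2 ratio of the libraries was 0.55 (0.30 to 0.81) for Mmp19 and 0.64 (0.34 to 0.95) for Timp2. It was 0.82 (-1.98 to 4.29) for Mmp14 on 2 and 4 UMIs, and 3.15 (0.33 to 8.59) for Timp1 on 1 and 10 UMIs. Within the second, on 18 control cells, it was 0.91 for Mmp19, 1.41 for Timp2 and 2.30 (-0.21 to 7.61) for Mmp14. The ratios of the whole class pool both subclusters in different proportions.

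**Figure D3:**
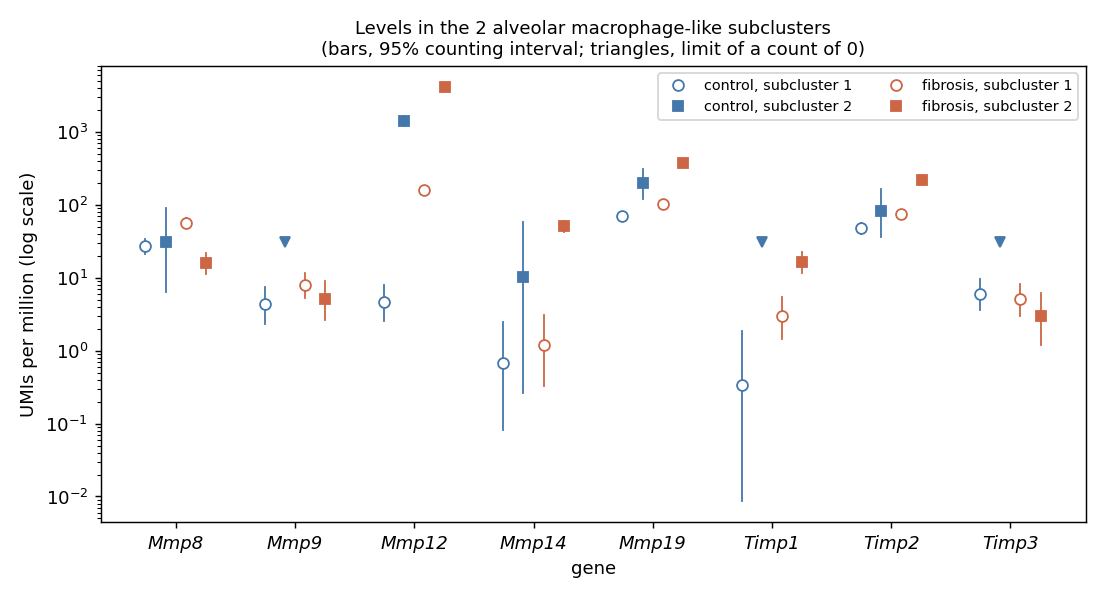
UMIs per 1000000 (log scale) of 8 genes in the 2 alveolar macrophage-like subclusters of each library, with 95% counting intervals, and triangles at the limit a count of 0 allows. Filled fibrosis squares (second subcluster) lie above open circles (first subcluster) for Mmp12, Mmp14, Mmp19, Timp1 and Timp2, and below for Mmp8.

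Depth and other markers moved with this division. Median depth in the fibrosis library was 4848 UMIs in the first and 6290.5 in the second subcluster. The summed level of the 8 interstitial macrophage markers was 65.4 CPM in the first (Folr2 at 0) and 1056 CPM in the second (none at 0), still far below the 16495 CPM of interstitial macrophage-like cells. The 5 classical monocyte markers summed to 40.6 and 76.8 CPM. The 10 alveolar macrophage markers summed to 36898 and 59155 CPM, with none at 0. The highest single marker gave 29408 and 54899 CPM, so 1 marker made up most of each sum. The lowest marker was at 131 and 56.9 CPM. The part of these differences in the member levels was not tested.

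Mmp14, the membrane-anchored activator of Mmp2, was almost absent from control alveolar macrophage-like cells, with 3 UMIs in 628 cells (0.980 CPM). The fibrosis cells held 122 UMIs in 72 of 989 cells (21.5 CPM), a log2 ratio of 4.45 (2.87 to 6.75). It was found where Mmp12 was: of the 72 fibrosis cells with Mmp14, 69 also held Mmp12. Expressed the other way, Mmp14 was found in 16.4% of cells with Mmp12 and in 0.529% of the others, at median depths of 5709.5 and 4835 UMIs. Timp2, the partner of Mmp14, was found in 55 of the 72 cells with Mmp14 (76.4%) and in 35.2% of the others, at median depths of 6609.5 and 5127 UMIs.

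In fibroblast-like cells, the class with the highest Mmp14 among those compared, the level was 136 CPM in the control and 166 CPM in the fibrosis library, and the interval of the log2 ratio spanned 0. Interstitial macrophage-like cells had 28.1 and 29.3 CPM, and mesothelial-like cells 40.0 and 42.4 CPM. In these 3 classes the libraries differed by less than 2-fold. Type 1 dendritic cell-like cells had 12.5 and 27.8 CPM, a log2 ratio of 1.16 (0.12 to 2.37). In club-like cells Mmp14 held 1 UMI in the control lung and 37 in the fibrosis lung, of which 10 sat in 1 cell of 92993 UMIs. In that class 18.5% of all genes were at least 2-fold higher, and the median gene was shifted by 0.34 on the log2 scale.

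Mmp19, a secreted metalloproteinase that cuts basement membrane proteins, had its highest level in alveolar macrophage-like cells. It held 226 UMIs in 153 control cells (73.8 CPM) and 1204 UMIs in 424 fibrosis cells (212 CPM), a log2 ratio of 1.52 (1.31 to 1.73). Classical monocyte-like cells had 34.6 CPM in the control and 30.4 CPM in the fibrosis library, and the interval of their ratio spanned 0. Interstitial macrophage-like cells had 4 UMIs in the control lung and 34 in the fibrosis lung (log2 ratio 1.97, 0.49 to 3.93), of which 15 sat in 1 fibrosis cell. Nonclassical monocyte-like cells had fewer, 20 UMIs in the control lung and 4 in the fibrosis lung (log2 ratio -1.74, -3.75 to -0.16). The other classes past 2-fold were higher in the fibrosis library. Fibroblast-like cells had 26.1 and 71.1 CPM on 5 and 21 UMIs (log2 ratio 1.44, -0.002 to 3.21). Proliferating-like cells had 27.7 and 67.2 CPM (1.28, 0.29 to 2.42), and AT2-like cells 0.671 and 2.38 CPM (1.83, 0.29 to 3.82). Tmem198b overlaps the end of Mmp19 on the opposite strand and held 248 UMIs in all.

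**Figure D4:**
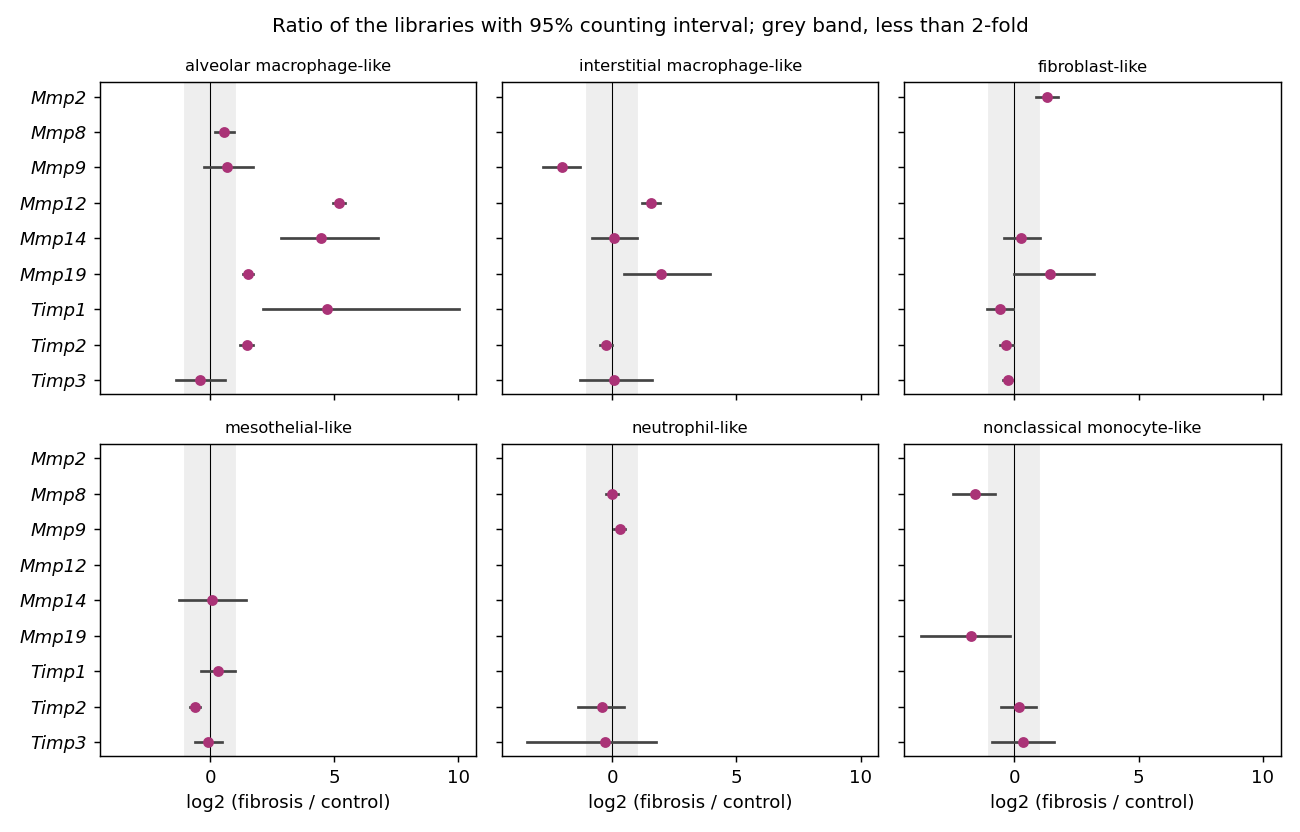
Log2 ratio of the fibrosis to the control library for each gene in 6 cell classes, with exact 95% counting intervals; the grey band marks less than 2-fold, and pairs with under 20 UMIs over both libraries are not drawn. In alveolar macrophage-like cells Mmp12, Mmp14, Mmp19, Timp1 and Timp2 lie right of the band; in interstitial macrophage-like cells Mmp9 lies left of it.

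Mmp2, the gelatinase that Mmp14 activates, was close to restricted to fibroblast-like cells, which held 78.3% of its UMIs in the control lung and 83.3% in the fibrosis lung. The level there was 282 CPM (54 UMIs in 21 of 45 cells) in the control and 694 CPM (205 UMIs in 40 of 56 cells) in the fibrosis library. The log2 ratio was 1.298 (0.86 to 1.76), and 1.45 without the richest cell of each library. The next class was endothelial-like, with 10.4 and 17.05 CPM. Within fibroblast-like cells, Mmp14 was found in 25 of the 40 fibrosis cells with Mmp2 (62.5%) and in 31.2% of the others, and in 61.9% and 20.8% of the control cells. Cells with Mmp2 were also deeper, with medians of 5552 against 3018 UMIs in the fibrosis and 3921 against 2647.5 in the control library. All 40 fibrosis cells and all 21 control cells with Mmp2 also held Timp2.

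Markers of other cells differed in the fibroblast-like class. The 7 AT2 markers summed to 12331 CPM in the control and 2115 CPM in the fibrosis library, and the 10 alveolar macrophage markers to 595 and 1848 CPM (Siglecf and Marco at 0 in the control library, Marco at 0 in the fibrosis library). Their part in the Mmp2 difference was not tested. The 8 fibroblast markers themselves summed to 19126 and 21092 CPM.

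Mmp8 and Mmp9 were highest in neutrophil-like cells of both lungs and differed there by less than 2-fold. Mmp8 was 928 CPM in the control and 929 CPM in the fibrosis library, and its log2 ratio of 0.00 lay between -0.26 and 0.25. It was found in 411 of 649 control cells (63.3%) and 40 of 61 fibrosis cells (65.6%). Mmp9 was 904 and 1111 CPM, a log2 ratio of 0.30 (0.06 to 0.53). In the control library 83.9% of neutrophil-like cells with Mmp8 also held Mmp9, against 75.2% of the others, and in the fibrosis library 95% against 85.7%.

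Classical monocyte-like cells were another large source of Mmp8, with 234 CPM in the control and 197 CPM in the fibrosis library (log2 ratio -0.25, -0.43 to -0.07). It held 51.2% of all Mmp8 UMIs of the control library, more than the 35.5% in neutrophil-like cells. S100a8, a neutrophil transcript, had a median of 2 UMIs in control classical monocyte-like cells with Mmp8 and 1 in those without, against 358 in neutrophil-like cells with Mmp8. Of the 1745 control UMIs, 48 sat in cells with 50 or more S100a8 UMIs. Nonclassical monocyte-like cells had 39.1 CPM in the control and 13.03 CPM in the fibrosis library, a log2 ratio of -1.58 (-2.47 to -0.79). Alveolar macrophage-like cells had 26.8 and 39.9 CPM, and within their first subcluster 27.0 and 56.7 CPM.

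Outside neutrophils, Mmp9 was highest in control interstitial macrophage-like cells, at 86.2 CPM (49 UMIs in 23 of 158 cells). The fibrosis cells had 21.1 CPM (26 UMIs in 17 of 339 cells), a log2 ratio of -2.03 (-2.77 to -1.31). Without the richest cell of each library the log2 ratio was -2.05 (-2.85 to -1.30). S100a8 had a median of 1 UMI in the Mmp9-positive cells of both libraries, while 7 of the 49 control and 9 of the 26 fibrosis UMIs sat in cells with 50 or more S100a8 UMIs.

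A single fibrosis cell changed the account of Mmp9. In classical monocyte-like cells Mmp9 held 11 UMIs in the control lung and 84 in the fibrosis lung (log2 ratio 5.27), but 80 of the 84 sat in a single cell of 13744 UMIs. Without the richest cell of each library the log2 ratio was 1.18 (-0.98 to 3.02), without doublet removal it was -0.21, and with each cell gated singly -0.06. That cell also held 67 UMIs of Acp5 (tartrate-resistant acid phosphatase), 39 of Ctsk (cathepsin K), 11 of Atp6v0d2 and 2 of Ocstamp. These genes are known together from bone-resorbing osteoclasts. Atp6v0d2 is also among the alveolar macrophage markers used here, and Ctsk was 425 and 982 CPM in alveolar macrophage-like cells. The same cell held 0 UMIs of the monocyte gene Ly6c2 and of C1qa. In the second clustering it fell among interstitial macrophage-like cells. That subcluster then had Mmp9 at 86.7 CPM in the control and 83.2 CPM in the fibrosis library, so that the lower value above depends on the place given to this cell. Without doublet removal the interstitial macrophage-like log2 ratio was -0.05.

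In endothelial-like cells both neutrophil proteases were lower in the fibrosis library, Mmp8 with 30 and 9 UMIs (log2 ratio -1.76) and Mmp9 with 36 and 17 UMIs (-1.11). Neutrophil markers moved with them: the 7 markers summed to 16044 CPM in the control and 4150 CPM in the fibrosis endothelial-like cells, none at 0. Of the 36 control Mmp9 UMIs, 35 sat in cells with 50 or more S100a8 UMIs, and of the 30 Mmp8 UMIs, 20. The difference was seen in 1 of the 2 endothelial-like clusters, that of 157 control and 158 fibrosis cells, with 54.1 and 8.67 CPM for Mmp8 and 63.5 and 14.4 CPM for Mmp9. In the cluster of 150 and 67 cells both were higher in the fibrosis library, on few UMIs: 1 and 3 for Mmp8, 2 and 7 for Mmp9. In type 1 dendritic cell-like cells, where both genes had more UMIs in the fibrosis library (2 and 19 for Mmp8, 3 and 19 for Mmp9), 17 of the 19 UMIs of each sat in such cells. A single fibrosis cell held 13 of the 19 Mmp8 UMIs. The intervals of both log2 ratios spanned 0 (-0.09 to 5.11 for Mmp8, -0.39 to 3.77 for Mmp9). The summed neutrophil markers went the other way there, with 6430 CPM in the control and 1460 CPM in the fibrosis library. The endothelial ratio changed sign with finer clustering, to 1.56 for Mmp8 and 0.79 for Mmp9, and for Mmp9 also with singly gated (0.32) and thinned cells (0.62).

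Among the compared classes, the inhibitors had their highest levels in structural cells. In those leading classes the libraries differed by less than 2-fold. Timp3 was 2194 CPM in the control and 1821 CPM in the fibrosis fibroblast-like cells, and 2097 and 2177 CPM in AT1-like cells, the flat cells that line the alveolus. In both libraries the intervals of these 2 classes overlapped, and endothelial-like cells followed with 447 and 494 CPM. All 29 control and all 33 fibrosis AT1-like cells held the transcript. Of the 12 classes counted, none was past 2-fold in either direction. The log2 ratios lay between -0.40 in alveolar macrophage-like cells and 0.85 in club-like cells, with a median of 0.03.

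Timp2 was counted in all 20 classes, the widest spread of the 9 genes. Mesothelial-like cells had the highest level, 1860 CPM in the control and 1210 CPM in the fibrosis library (log2 ratio -0.62, -0.83 to -0.42). Fibroblast-like cells followed with 1154 and 920 CPM, AT1-like cells with 610 and 424 CPM, and endothelial-like cells with 375 and 278 CPM. In these 4 structural classes the fibrosis value was the lower one, by less than 2-fold, with intervals that excluded 0. The endothelial-like class pools 2 clusters in different proportions, one with 150 control and 67 fibrosis cells and one with 157 and 158. Within them Timp2 was 741 and 693 CPM in the first and 149 and 166 CPM in the second, with intervals that overlapped in each, so the lower endothelial-like value was not seen within either cluster. Alveolar macrophage-like cells went the other way, from 48.7 CPM (149 UMIs in 125 cells) in the control to 135 CPM (768 UMIs in 378 cells) in the fibrosis library, a log2 ratio of 1.47 (1.22 to 1.74). Interstitial macrophage-like cells had 357 and 302 CPM, and their interval spanned 0. Club-, type 1 dendritic cell- and B cell-like cells were the other 3 classes past 2-fold, with 17 and 88, 8 and 46, and 10 and 11 UMIs. Their log2 ratios were 1.39 (0.63 to 2.23), 1.24 (0.14 to 2.53) and 1.12 (-0.26 to 2.51), and the last interval spanned 0. In club-like cells the median gene was shifted by 0.34 on the log2 scale.

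Timp1, the inhibitor known for its induction by inflammation, was found in fibroblast-like cells at 308 CPM (59 UMIs) in the control and 206 CPM (61 UMIs) in the fibrosis library. A single control cell held 21 of the 59 UMIs, and without the richest cell of each library the levels were 204 and 178 CPM. Mesothelial-like cells had 128 and 159 CPM, with an interval of the ratio that spanned 0. Alveolar macrophage-like cells held 1 UMI in the control and 48 UMIs in 36 cells of the fibrosis library (0.327 and 8.44 CPM, log2 ratio 4.69, 2.14 to 10.0). This was the largest ratio of an inhibitor and rests on a single control UMI.

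Over whole libraries, the makeup of the cells and the level within classes gave different pictures. Mmp8 was 105 CPM in the control and 25.2 CPM in the fibrosis library, and Mmp9 47.4 and 16.2 CPM. The fibrosis levels were then summed in the class proportions of the control library. With that, the log2 ratio of Mmp8 changed from -2.06 to -0.19 and that of Mmp9 from -1.55 to 0.45. The Mmp9 sum takes in classical monocyte-like cells at 56.8 CPM, where 80 of the 84 UMIs sat in a single cell. Without that cell their fibrosis level was 2.73 CPM, and the sum was not made again without it. Mmp12 was 10.3 and 324 CPM, and its log2 ratio stayed large, 4.98 as measured and 4.27 at control makeup. The log2 ratios changed from 1.69 to 1.29 for Mmp2, from 1.59 to 0.91 for Mmp14 and from 1.18 to 0.78 for Mmp19. For the inhibitors they changed from 0.67 to 0.30 (Timp1), from 0.37 to 0.04 (Timp2) and from 0.34 to -0.01 (Timp3).

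**Figure D5:**
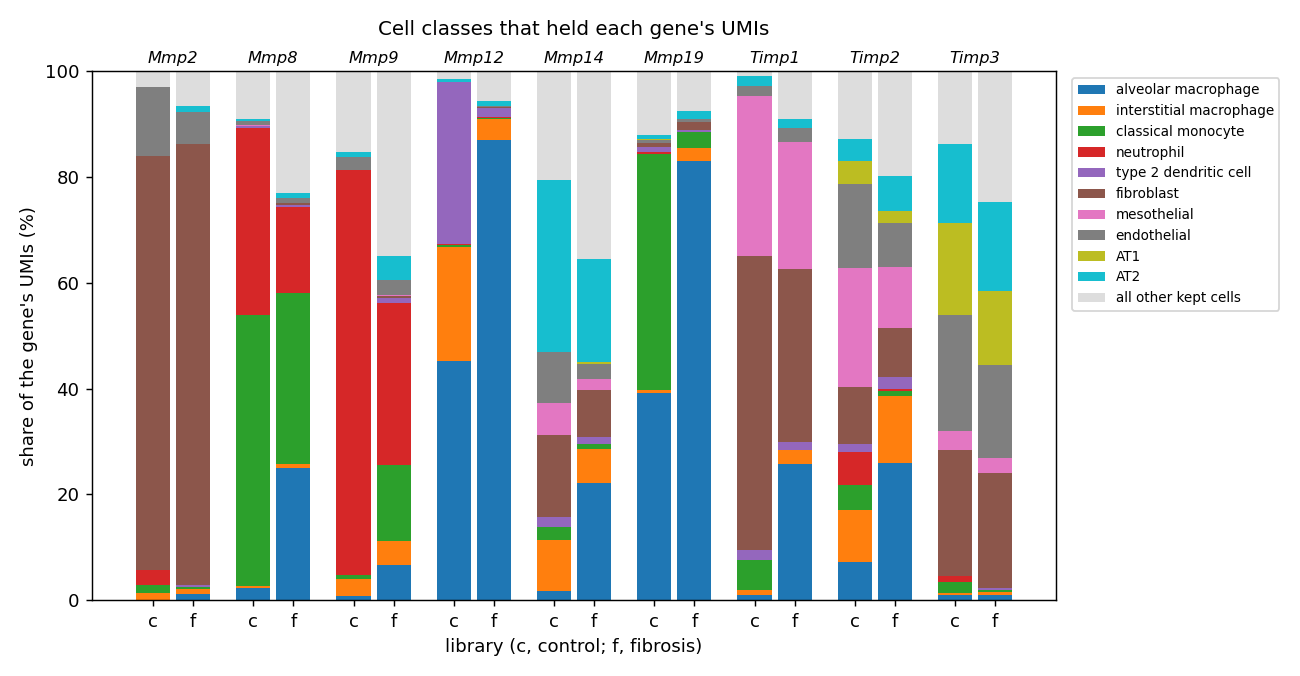
Share (%) of each gene's UMIs held by the named cell classes in the control (c) and fibrosis (f) library; grey, all other kept cells. Alveolar macrophage-like cells held 87.1% of Mmp12 and 83.1% of Mmp19 UMIs in the fibrosis library, against 45.2% and 39.1% in the control library.

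Alveolar macrophage-like cells held more of 7 members' UMIs in the fibrosis library, by share, and the share of Timp3 (0.967% and 0.972%) and Mmp2 (0% and 1.22%) stayed small. Besides Mmp12 they held 39.1% of Mmp19 UMIs in the control lung and 83.1% in the fibrosis lung, 7.22% and 26.0% of Timp2, 0.943% and 25.7% of Timp1, and 1.81% and 22.1% of Mmp14. For Mmp8 the shares were 2.41% and 25.1%, and for Mmp9 0.846% and 6.71%. These cells made up 8.36% of control and 14.6% of fibrosis cells.

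Of the 17 further genes of the family, 5 had 100 or more UMIs over both libraries and 12 had fewer, among them 4 with none. Mmp3 (stromelysin) shared the pattern of Mmp2: fibroblast-like cells held 46 control and 175 fibrosis UMIs (240 and 592 CPM, log2 ratio 1.301, 0.83 to 1.80). Mmp15, a membrane-anchored relative of Mmp14, had 722 control and 1149 fibrosis UMIs, more than Mmp2, Mmp14 or Timp1. By number of UMIs, Mmp15 led in AT2-like cells (78.5 and 71.6 CPM) and Mmp23 in ciliated-like cells (13.1 and 35.1 CPM). The level of Mmp23 was higher in fibroblast-like cells, 162 and 129 CPM on 31 and 38 UMIs. Mmp13, an interstitial collagenase, held 6 and 40 UMIs in alveolar macrophage-like cells.

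Among proteases and partners of other families in alveolar macrophage-like cells, genes with at least 50 UMIs are given. Of 8 cathepsins and cystatins 2 were at least 2-fold higher and none lower: Ctsl, 275 and 749 CPM, and Ctsk, 425 and 982 CPM. Of 8 adamalysins 1 was higher, Adam8, with 3.59 and 35.2 CPM (log2 ratio 3.29, 2.42 to 4.32). Of 6 further inhibitors and cofactors 1 was higher, the neutrophil-gelatinase partner Lcn2, with 12.7 and 31.8 CPM. Lcn2 was also among the leading genes of an AT2-like cluster of 96 control and 552 fibrosis cells. The 7 AT2 markers summed to 1560 and 2561 CPM in alveolar macrophage-like cells, and their part in the Lcn2 difference was not tested. Of 5 serine proteases and serpins none was past 2-fold. All 3 covered matrix substrates were higher: Spp1 (389 and 2671 CPM), fibronectin Fn1 (171 and 690 CPM) and Col4a1 (11 and 50 UMIs). The median log2 ratios were 0.33 for the cathepsin, 0.27 for the adamalysin and -0.23 for the serine protease list, beside -0.06 over all genes of the class.

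In interstitial macrophage-like cells, 3 of the other listed genes with at least 50 UMIs were past 2-fold, all higher. They were Spp1 (8.80 and 84.5 CPM), Fn1 (125 and 294 CPM) and Lcn2 (22.9 and 50.4 CPM). The 7 AT2 markers summed to 1958 and 2974 CPM there, and their part in the Lcn2 difference was not tested. None of the 7 cathepsins and cystatins and none of the 5 adamalysins there was past 2-fold. In fibroblast-like cells 2 of the 5 covered collagens were at least 2-fold higher: Col3a1 was 1708 and 4633 CPM, and Col1a1 1160 and 2382 CPM. The log2 ratios of Col1a2 (0.75), Col4a1 (0.54) and Col4a2 (0.71, with an interval that spanned 0) were below 2-fold. Ctsk (78.3 and 196 CPM) and Serpina3n (324 and 673 CPM) were also past 2-fold. Of the 12 substrates covered, 2 were past 2-fold, with a median log2 ratio of 0.34 beside -0.04 over all genes of the class. Elastin (Eln, 919 and 1837 CPM) lay just below 2-fold, with a log2 ratio of 0.999 (0.75 to 1.25). Fibronectin (1013 and 684 CPM) and decorin (7046 and 4450 CPM) were lower in the fibrosis library by less than 2-fold.

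Genes with the most similar pattern were ranked over the 40 levels of 20 classes in 2 libraries among 11502 genes, by the Pearson correlation of log2(CPM + 1). The levels share libraries and depth, so the values are descriptions. Mmp2 was most like Serpina3n (0.945), Pdgfra (0.935) and Pcolce2 (0.929), Timp1 most like Mfap5 (0.931), and Timp3 most like Ctgf (0.929) and Sparc (0.919). Mmp9 was most like S100a8 (0.840) and Mmp8 most like Msrb1 (0.874). For Mmp12 the highest value was lower, with AA467197 first (0.759), followed by Gm10116 (0.751) and Rnase2a (0.742). Mmp14 was most like Tspan4 (0.777), Mmp19 most like Tfec (0.810) and Timp2 most like Ctsf (0.833).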

How the data were processed

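Whole lungs of 2 mice were profiled by droplet single-cell RNA sequencing. The authors deposited raw UMI counts per gene and cell as whole numbers without normalisation; Cell Ranger 1.3, bcl2fastq and the build mm10 are named in the submitters' processing notes, with no role given. The deposited tables held 8280 control cells with 36632591 UMIs and 7173 fibrosis cells with 38090308 UMIs, and the lowest totals of a cell were 1460 and 1915.

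Cells under 200 genes or above 10% mitochondrial UMIs were left out. Doublets were scored with scrublet in scanpy 1.11.5, which marked 13 control cells (0.162%) and 168 fibrosis cells (2.42%). As the control threshold marked under 0.5%, the 515 control cells of highest score (6.42%) were removed, and the 168 in the fibrosis library. Cells were clustered together without any of the 90 listed protease, inhibitor and substrate genes (2000 variable genes, 30 components, 15 neighbours, Leiden resolution 1, igraph 0.11.9). Classes were named from 27 marker lists, of which 4 symbols were not matched, by at least 3 markers and a mean log2 excess of 1. The naming thresholds were chosen with the clusters already known. Macrophage- and monocyte-like cells were reclustered at resolution 0.5 without listed or marker genes.

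UMIs were summed per class and library. Levels carry exact Poisson 95% intervals, ratios exact conditional binomial intervals and shares Clopper-Pearson intervals (scipy 1.17.1), all for counting error only; a count of 0 was given a limit of 3 counts. A pair of gene and class was counted with at least 20 UMIs over both libraries in classes of at least 20 cells in each, and called past 2-fold. The routines were checked on simulated counts. Each library is 1 mouse, so no p-value is given.

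All 9 members are named. Other listed genes are named with at least 50 UMIs in alveolar macrophage-, interstitial macrophage- or fibroblast-like cells and at least a 2-fold ratio, at most 8 per class, and for each member up to 3 genes of most similar pattern with at least 200 UMIs. Other genes named beside them were chosen after their values were seen. The members and lists were chosen with earlier results of these data known. Alternatives were equal UMI floors, other doublet and mitochondrial rules, gating of single cells, other resolutions, scalings, UMI minimums, thinning to 1000 UMIs, subtraction of the B cell-like level and leaving out shared barcodes. After the data were seen, leaving out the richest cell and classes under 50 cells was added.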

Additional observations from a re-analysis of the deposited data

Results flagged for a closer look

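Members were past 2-fold in opposite directions in different classes, and these differences between classes were not tested. The Mmp8 log2 ratio was 1.71 in proliferating-like cells (4 control and 28 fibrosis UMIs) and -1.76 in endothelial-like cells. The Mmp9 log2 ratio was 5.27 in classical monocyte-like cells, where 80 of the 84 fibrosis UMIs sat in a single cell, and -2.03 in interstitial macrophage-like cells. For Mmp19 the log2 ratio was 1.97 in interstitial macrophage-like cells and -1.74 in nonclassical monocyte-like cells.

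Lymphatic endothelial-like cells, with 6 control and 25 fibrosis cells, were outside the comparisons. Mmp12 held 79 UMIs there in the fibrosis library and 0 in the control library, and 77 of the 79 sat in a single cell of 18586 UMIs.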

How the results depend on the processing

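The results were recomputed under 15 planned and 2 further alternatives, the latter chosen after seeing the data. No paired analysis was possible because each group holds 1 library, and no replicate was left out for the same reason.

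The 27 pairs of member and class at least 2-fold higher became 8 of 31 with cells thinned to 1000 UMIs, 13 of 47 with a minimum of 50 UMIs and 41 of 125 with no minimum beyond 1 UMI in each library, and lay between 20 and 28 otherwise. The 6 lower pairs became 2 of 31, 3 of 47 and 17 of 125 under these settings, 2 of 70 with each cell gated singly, and 5 or 6 otherwise. The fewer or more pairs counted follow from the minimum and from the thinning. The shares over all genes (5.46% higher and 3.57% lower) were computed for the main setting only. The counts under the alternatives therefore have no such share beside them. The Mmp12 log2 ratio in alveolar macrophage-like cells (5.18) was 6.84 with a mitochondrial limit of 5%, 4.94 with cells gated singly, 4.90 as a mean over cells and 6.46 without the richest cell of each library, and between 5.16 and 5.29 otherwise. The log2 ratio of Mmp12 between the second subcluster and the other fibrosis alveolar macrophage-like cells (4.57) was 4.12 at resolution 1.

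Direction changed for Mmp9 in classical monocyte-like cells (5.27 to -0.21 without doublet removal and -0.057 gated singly), Mmp8 in AT2-like cells (-1.17 to 0.46 gated singly), Mmp9 in endothelial-like cells (-1.11 to 0.32 gated singly, 0.79 at Leiden resolution 2 and 0.62 thinned) and Mmp8 there (-1.76 to 1.56 at resolution 2). The cause was not tested beyond the cells named in the report. Of the called pairs with a ratio, 29 of 29 stayed past 2-fold with equal UMI floors, with both other scalings and without shared barcodes, 18 of 23 with cells gated singly and 15 of 21 thinned. Against the median gene, club-like ratios shift by 0.34, ciliated-like by 0.11 and proliferating-like by -0.10 on the log2 scale. Pairs with no control UMI have no ratio. With 1 mouse per group, differences between mice and between particles cannot be told apart.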

Other observations

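Lymphatic endothelial-like cells, left out of the comparisons for their number, had the highest Mmp14 level of the fibrosis library: 57 UMIs in 17 of 25 fibrosis cells (68.0%, 346 CPM), above the 166 CPM of fibroblast-like cells of the same library. The 6 control cells held 1 UMI. Timp3 in these cells was 2627 CPM in the control and 1664 CPM in the fibrosis library and was found in every cell of both, and Timp2 was 1126 and 644 CPM. Smooth muscle- or pericyte-like cells (13 control and 18 fibrosis) also carried Timp3, at 1496 and 875 CPM.

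Cells in mixed clusters (274 control and 322 fibrosis) held 12.3% of Mmp9 UMIs in the control lung and 23.1% in the fibrosis lung, and 5.93% and 13.6% of Mmp8 UMIs. They held no Mmp12 UMI in the control library and 89 in the other.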
